A study of Gallus gallus with 31 samples.

Results

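The genes described here are 6 members of the bone morphogenetic protein (BMP) pathway in chicken fat: the receptor BMPR2, the secreted BMP antagonists and modulators CHRDL1, NBL1 and TWSG1, and the transcriptional regulators ID1 and ID4. They were taken by gene symbol from a table of 564 genes. All 6 passed the filter on low values and are among the 423 genes tested. Their levels are given across bird line, fat depot and trial in all 31 RNA libraries.

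The birds were male chickens of 42 days, and every sample was labelled as a control. Birds of 2 lines were used, the commercial broiler Ross and a line that the labels name Illinois without more detail. From both lines, fat of the abdomen and fat of the heart (cardiac fat) was flash frozen, and its polyA RNA was sequenced with a stranded kit. The groups held 7 Illinois abdominal libraries and 8 Illinois cardiac libraries, all of the trial named Fall 13. Ross abdominal fat had 4 libraries of the trial Fall 12 and 4 of Fall 13, and Ross cardiac fat had the same numbers. The labels do not tie abdominal libraries to cardiac libraries of one bird. In 15 cases the column names give an abdominal and a cardiac library the same second number, whose meaning is not stated. The libraries that share a number are in each case of the same line and trial. The tests treat libraries as unpaired. The p-values here measure spread among libraries, part of which may be technical.

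BMPs are secreted ligands that bind a complex of type I and type II receptors, of which BMPR2 is a type II member. The activated complex phosphorylates SMAD proteins, and these enter the nucleus and raise the transcription of target genes, among them the ID genes. ID proteins lack a DNA-binding region and hold other helix-loop-helix proteins away from DNA. Antagonists such as CHRDL1 and NBL1 bind ligands outside the cell, while TWSG1 can either help or hinder them depending on its partners. In mammalian fat, BMP signalling is known for its part in committing precursor cells to the fat cell lineage.

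Values are FPKM as deposited, that is, fragments scaled to transcript length and to each library's mapped total. Differences are log2 fold changes of log2(FPKM + 1) with their standard error (SE), from limma across all 423 tested genes, with a mean for each of the 6 combinations of line, depot and trial. A gene was called where its two-sided p, adjusted by Benjamini-Hochberg over those genes, was below 0.05. The table uses 0.001 as a floor, which is not a measurement.

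Depth is known only in relative terms, from the steps between low values, as 0.538 to 2.32 times the median library. The highest, that of Illinois cardiac library 1113, may be wrong by a whole factor. Depth was higher in Illinois than in Ross Fall 13 libraries, at 1.21 to 1.66 against 0.538 to 0.771 in abdominal fat and 0.947 to 2.32 against 0.676 to 0.939 in cardiac fat, so line and depth cannot be told apart. In Ross Fall 12 depth was 0.607 to 0.719 in abdominal and 0.934 to 1.07 in cardiac libraries, so depot and depth cannot be told apart there. The depths of the depots overlapped in Illinois and in Ross Fall 13, but only through few libraries. In Illinois the median was 1.52 in abdominal and 1.11 in cardiac fat, with overlap through cardiac libraries 1111 (1.38) and 1113. In Ross Fall 13 the medians were 0.613 and 0.863, with overlap through cardiac library 1206 (0.676) and abdominal library 1198 (0.771). Depot and depth cannot be fully told apart there either. Between the Ross trials depths overlapped in abdominal fat. In cardiac fat depth was higher in Fall 12, with overlap only through Fall 12 library 1211 (0.934) and Fall 13 library 1205 (0.939). Trial and depth cannot be fully told apart in Ross cardiac fat. The fat cell marker FABP4, a fatty acid carrier, was high in each library, the lowest sum of FABP4 and PPARG being 1971 FPKM. Of 19 listed heart muscle genes, 3 were in the table, and CASQ2, a calcium store protein of heart muscle, reached 77.2 FPKM in Ross cardiac library 1208, 36.3 in Illinois cardiac library 1107, 27.5 in Illinois cardiac library 1112 and 18.1 in Ross cardiac library 1209. In the other 27 libraries it was at most 5.10 FPKM. Libraries 1208, 1107, 1112 and 1209 are called the muscle-signal libraries, and for some calls the result without them is also given. CASQ2 was 0.672 to 5.10 FPKM in Ross abdominal Fall 13, against 0.001 to 0.502 in Ross abdominal Fall 12 and 0.001 to 0.206 in Illinois abdominal fat. Of the 2 tested heart muscle genes, limma called 0 in the abdominal line and trial comparisons. The part of this abdominal signal in them was not tested.

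**Figure D1:**
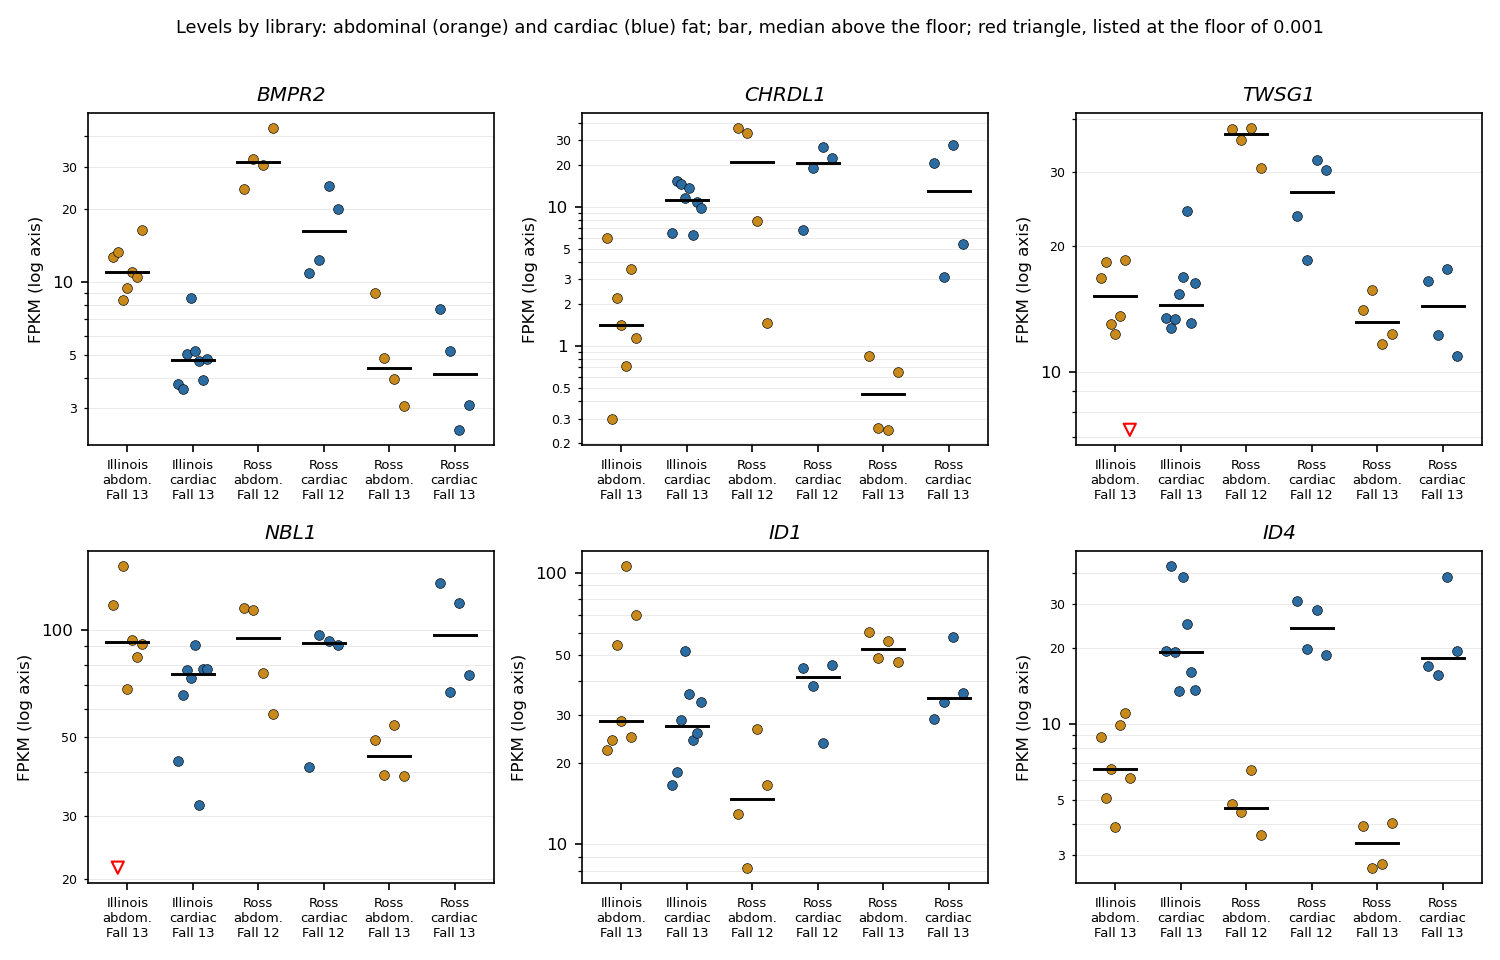
FPKM of the 6 genes in each of the 31 libraries on log axes, grouped by line, depot and trial, with a bar at the median of the values above the floor. ID4 separates the depots in every library, BMPR2 and TWSG1 are high in the Ross Fall 12 groups, and a red triangle marks the single library at 0.001 for TWSG1 and for NBL1.

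ID4 was higher in cardiac than in abdominal fat in both lines and both trials. Its protein restrains helix-loop-helix factors, and in mouse fat precursors it is known to take part in fat cell formation. In Illinois abdominal fat ID4 ranged from 3.89 to 11.1 FPKM with a median of 6.60, and in Illinois cardiac fat from 13.6 to 42.4 with a median of 19.4. The levels in Ross abdominal fat were 4.79, 4.44, 6.58 and 3.62 FPKM in libraries 1199 to 1202 of Fall 12, and 3.92, 2.68, 2.77 and 4.05 in libraries 1195 to 1198 of Fall 13. The levels in Ross cardiac fat were 30.9, 19.9, 28.3 and 18.8 FPKM in libraries 1208 to 1211 of Fall 12, and 17.0, 15.6, 38.5 and 19.6 in libraries 1204 to 1207 of Fall 13. The lowest of the 16 cardiac libraries lay above the highest of the 15 abdominal libraries. Only 5 of the 423 tested genes (1.18%) separated the depots over all 31 libraries, ID4 being one and the others ADRA1B, TBX20, PITX1 and BMP10.

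The depot difference of ID4 was 2.24 on the log2 scale in Ross, averaged over trials (SE 0.24, limma adjusted p = 6.04e-08). Within trials it was 2.11 in Fall 12 (SE 0.33, limma adjusted p = 7.56e-05) and 2.37 in Fall 13 (SE 0.33, limma adjusted p = 1.08e-05). In Illinois it was 1.496 (SE 0.24, limma adjusted p = 6.67e-05). These calls held under all alternatives run. The depot difference was 0.87 larger in Ross than in Illinois within Fall 13 (SE 0.41), and this did not pass (limma adjusted p = 0.224; 95% interval 0.03 to 1.72 before adjustment). Between trials, ID4 differed by -0.42 in Ross abdominal fat (limma adjusted p = 0.402) and by -0.17 in Ross cardiac fat (limma adjusted p = 0.833), neither of which passed.

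Ross abdominal fat held less ID4 than Illinois abdominal fat within Fall 13, by -0.89 on the log2 scale (SE 0.30, limma adjusted p = 0.0400). This call was not stable. It was lost after quantile normalization (-0.64, limma adjusted p = 0.170) and with no filter on low values (limma adjusted p = 0.0521). It was also lost when any of Illinois libraries 1092, 1094, 1097 or 1098 or Ross libraries 1195 to 1198 was left out (-0.79 to -0.97, limma adjusted p 0.0526 to 0.113). ID4 missed the threshold in the exact permutation test of rank sums too (adjusted p = 0.113). That test called 0 of all 423 genes in this comparison and is no further evidence. In cardiac fat the line difference was -0.02 (SE 0.29, limma adjusted p = 0.980).

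ID1 gave depot differences of both signs, and in Ross abdominal fat it was higher in Fall 13. ID1 is the ID gene most often used as a readout of BMP signalling, and endothelial cells express it strongly. In Illinois abdominal fat it ranged from 22.3 to 106 FPKM with a median of 28.5, and in Illinois cardiac fat from 16.5 to 51.6 with a median of 27.3. Ross abdominal fat showed 12.9, 8.20, 26.7 and 16.5 FPKM in libraries 1199 to 1202 of Fall 12, and 60.5, 48.8, 56.2 and 46.8 in libraries 1195 to 1198 of Fall 13. Ross cardiac fat showed 44.6, 38.4, 23.6 and 45.9 FPKM in libraries 1208 to 1211 of Fall 12, and 29.0, 33.5, 58.1 and 36.0 in libraries 1204 to 1207 of Fall 13. The Ross abdominal trials did not overlap, while the Ross cardiac trials and the Illinois depots did.

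In Ross abdominal fat ID1 was 1.77 higher in Fall 13 than in Fall 12 on the log2 scale (SE 0.41, limma adjusted p = 0.00214), a call that held under all 41 alternatives. In Ross cardiac fat the trial difference was 0.03 (SE 0.41, limma adjusted p = 0.977). Within Fall 12, ID1 was 1.27 higher in cardiac than in abdominal fat (SE 0.41, limma adjusted p = 0.0373), and within Fall 13 it was -0.47 (SE 0.41, limma adjusted p = 0.485). The change of the depot difference between trials, -1.74, did not pass (SE 0.58, limma adjusted p = 0.162). The Fall 12 call was lost in 8 of 41 alternatives. Among these was leaving out the 4 muscle-signal libraries (1.11, limma adjusted p = 0.232), which keeps only 1210 and 1211 of the Ross cardiac Fall 12 libraries. The call was also lost when any of libraries 1199, 1200, 1202, 1208, 1209 or 1211 was left out (1.01 to 1.32, limma adjusted p 0.0587 to 0.150). The Illinois depots differed by -0.51 (limma adjusted p = 0.273). The lines differed by 0.40 in abdominal fat (limma adjusted p = 0.485) and 0.44 in cardiac fat (limma adjusted p = 0.505), and none of these passed.

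BMPR2, the receptor, was lower in Fall 13 than in Fall 12 in both Ross depots. Levels in Ross abdominal fat were 24.3, 32.2, 30.4 and 43.2 FPKM in libraries 1199 to 1202 of Fall 12, and 8.99, 4.86, 3.97 and 3.06 in libraries 1195 to 1198 of Fall 13. Levels in Ross cardiac fat were 10.9, 12.3, 24.9 and 20.1 FPKM in libraries 1208 to 1211 of Fall 12, and 7.72, 5.20, 2.45 and 3.09 in libraries 1204 to 1207 of Fall 13. The trials did not overlap in either depot.

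The trial difference of BMPR2 was -2.49 in Ross abdominal fat (SE 0.30, limma adjusted p = 6.87e-07) and -1.71 in Ross cardiac fat (SE 0.30, limma adjusted p = 0.000432). Both calls held under all 41 alternatives, with limma adjusted p up to 0.00106 in abdominal and 0.0474 in cardiac fat. Quantile normalization gave -1.88 in abdominal fat. All tested genes had a median trial difference of -0.30 in abdominal fat and -0.17 in cardiac fat on the deposited scale, and of 0.02 and 0.05 after quantile normalization.

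In Illinois fat BMPR2 ranged from 8.43 to 16.4 FPKM in the abdominal depot with a median of 10.9, and from 3.61 to 8.54 in the cardiac depot with a median of 4.76. The depots overlapped through a single cardiac library, 1110, at 8.54 FPKM. BMPR2 was lower in Illinois cardiac fat by -1.10 (SE 0.22, limma adjusted p = 0.000485), which held under all 43 alternatives. In the same comparison 3 of the 5 endothelial markers in the table, of 13 listed, fell (CLDN5 -1.86, CDH5 -1.08 and FLT1 -0.82), and their summed level was 172 to 396 FPKM in abdominal and 83.1 to 244 in cardiac libraries. Both listed fat cell genes in the table, of 12 listed, also fell (FABP4 -1.64 and PPARG -1.21). BMPR2 is known from endothelium among other cell types, and the part of these cell markers in the result was not tested. In tissue libraries, fewer cells of a type and less RNA per cell cannot be told apart.

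In Ross the depot difference of BMPR2 was -0.55 averaged over trials and did not pass (SE 0.21, limma adjusted p = 0.0507). It passed after quantile normalization (-0.66, limma adjusted p = 0.00562), after upper quartile scaling (-0.54, limma adjusted p = 0.0256), with floor values as missing (limma adjusted p = 0.0434), and when any of libraries 1110, 1198, 1199, 1204, 1205, 1210 or 1211 was left out (-0.55 to -0.67, limma adjusted p 0.0164 to 0.0495). Within Fall 12 it was -0.94 (SE 0.30, limma adjusted p = 0.0342). That call was lost in 8 of 41 alternatives. Among these was leaving out the 4 muscle-signal libraries (-0.49, limma adjusted p = 0.517), which keeps only 1210 and 1211 of the Ross cardiac Fall 12 libraries. The call was also lost when any of libraries 1200, 1201, 1202, 1208 or 1209 was left out (-0.76 to -0.96, limma adjusted p 0.0606 to 0.129). Within Fall 13 it was -0.16 (limma adjusted p = 0.810). The depot difference changed by 0.78 between trials (limma adjusted p = 0.499), and within Fall 13 by 0.94 between lines (limma adjusted p = 0.137), and neither passed.

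BMPR2 was lower in Ross than in Illinois abdominal fat within Fall 13, by -1.09 (SE 0.27, limma adjusted p = 0.00817). The cardiac line difference was -0.14 (SE 0.26, limma adjusted p = 0.803). The abdominal call held under 41 of 42 alternatives and missed the threshold in the exact permutation test of rank sums (adjusted p = 0.0814). That test called 0 of all 423 genes between the lines in abdominal fat and is no further evidence. In the same comparison 1 of 5 tested endothelial markers (CDH5 -1.06), 2 of 4 matrix genes (FBN1 -2.30 and FBN2 -1.30) and 1 of 3 mesothelial and epicardial markers (ALDH1A1 -1.70) were also called lower in Ross. The other endothelial markers were not called. By median, CLDN5 was lower in Ross than in Illinois (49.2 against 115 FPKM). The medians of SOX18 (77.7 against 45.5), ERG (30.1 against 20.4) and FLT1 (18.0 against 15.2) were higher in Ross. The summed endothelial level was 174 to 310 FPKM in Ross against 172 to 396 in Illinois, and the summed matrix level was 906 to 1880 against 725 to 2573. The part of these markers was not tested. In order of medians, BMPR2 was highest in Ross abdominal Fall 12, then Ross cardiac Fall 12, Illinois abdominal, Illinois cardiac, Ross abdominal Fall 13 and Ross cardiac Fall 13. The highest median was 7.55 times the lowest, although each group overlapped with the next.

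CHRDL1, a chordin-like secreted antagonist that binds BMP ligands, was the most variable of the 6 genes. The medians of its groups spanned 45.8-fold, against 2.19-fold for NBL1 and 2.80-fold for TWSG1. In Illinois abdominal fat it ranged from 0.297 to 5.94 FPKM with a median of 1.41, and in Illinois cardiac fat from 6.25 to 15.3 with a median of 11.2. In Ross abdominal fat it was 36.4, 33.7, 7.93 and 1.46 FPKM in libraries 1199 to 1202 of Fall 12, and 0.847, 0.259, 0.250 and 0.649 in libraries 1195 to 1198 of Fall 13. In Ross cardiac fat it was 6.85, 18.8, 26.8 and 22.5 FPKM in libraries 1208 to 1211 of Fall 12, and 20.6, 3.10, 27.8 and 5.43 in libraries 1204 to 1207 of Fall 13. The Illinois depots and the Ross Fall 13 depots did not overlap, and neither did the Ross abdominal trials. Both Ross depots overlapped in Fall 12.

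CHRDL1 was higher in cardiac fat by 2.08 in Illinois (SE 0.48, limma adjusted p = 0.00202) and by 2.93 in Ross Fall 13 (SE 0.66, limma adjusted p = 0.00292), and both calls held under all alternatives run. In Ross Fall 12 the difference was 0.46 and did not pass (SE 0.66, limma adjusted p = 0.717). The mean of both Ross trials was 1.70 (SE 0.47, limma adjusted p = 0.00709), which missed the threshold only in the exact permutation test of rank sums (adjusted p = 0.345) among 43 alternatives. The depot difference was 2.48 larger in Fall 13 than in Fall 12, and this did not pass (SE 0.93, limma adjusted p = 0.202), except when Ross abdominal library 1202 was left out (3.28, limma adjusted p = 0.0178). In Ross abdominal fat CHRDL1 fell from Fall 12 to Fall 13 by 3.13 on the log2 scale (log2 fold change -3.13, SE 0.66, limma adjusted p = 0.000906), under all 41 alternatives too. In Ross cardiac fat the trial difference was -0.66 (limma adjusted p = 0.580).

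Markers of the mesothelium and epicardium, the cell layers that line body cavities and the heart, were among the cell markers that moved with depot and trial. Of 9 listed, 3 were in the table (TBX18, ALDH1A1 and TBX20). All 3 rose in cardiac fat in Illinois, in Ross Fall 13 and in the mean of the Ross trials, and TBX20 also rose in Ross Fall 12 (3.68), where CHRDL1 did not pass. Their summed level was 1.75 to 23.0 FPKM in Illinois abdominal and 35.3 to 98.5 in Illinois cardiac libraries. In Ross it was 20.04 to 35.6 FPKM in abdominal Fall 12, 1.49 to 3.57 in abdominal Fall 13, 52.0 to 92.3 in cardiac Fall 12 and 31.9 to 37.5 in cardiac Fall 13. TBX20 was at the floor in 1 Illinois and 1 Ross abdominal library. Of 4 tested matrix genes, of 13 listed, FBLN1 rose in cardiac fat in Illinois (2.94) and in Ross Fall 13 (2.76), FBN1 rose in Ross Fall 13 (2.65), and FBN2 fell in Illinois (-0.94). CHRNA3, the single gene tested of 12 listed for nerve and neural crest, rose in Illinois (1.34) and in Ross Fall 12 (2.72). In Illinois both tested fat cell genes, FABP4 (-1.64) and PPARG (-1.21), and 3 of 5 endothelial markers fell in cardiac fat. In the mean of the Ross trials 1 of 2 tested fat cell genes, PPARG (-0.79), and 2 of 5 endothelial markers, ERG (-0.73) and SOX18 (-1.17), fell in cardiac fat. The other fat cell gene, FABP4, was not called. Its median was higher in cardiac fat, at 16526 against 13010 FPKM in Fall 12 and 21874 against 13914 in Fall 13. Its ranges overlapped between depots in both trials. Between trials in Ross abdominal fat, TBX18 (-2.19) and ALDH1A1 (-2.96) fell on the log2 scale, as did 2 of 4 tested matrix genes (FBLN1 -2.20 and FBN1 -3.69) and CALD1 (-1.57), the single smooth muscle marker in the table. CALD1 was also lower in cardiac than in abdominal fat in Ross Fall 12 (medians 73.6 and 152 FPKM) and in the mean of the Ross trials. In cardiac fat 1 of 2 tested heart muscle genes was higher in Illinois, and 1 of 2 immune genes in the mean of the Ross trials. In Ross Fall 13, 1 of 5 endothelial markers was lower in cardiac fat. The part of these cell markers in the differences of CHRDL1, ID4, ID1 and BMPR2 was not tested.

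TWSG1, the twisted gastrulation modulator, was higher in the Fall 12 libraries of both Ross depots, and no depot or line difference of it passed. Ross abdominal fat gave 38.0, 35.7, 38.1 and 30.6 FPKM in libraries 1199 to 1202 of Fall 12, and 14.0, 15.7, 11.7 and 12.3 in libraries 1195 to 1198 of Fall 13. Ross cardiac fat gave 23.5, 18.5, 32.0 and 30.2 FPKM in libraries 1208 to 1211 of Fall 12, and 16.4, 12.2, 17.6 and 10.9 in libraries 1204 to 1207 of Fall 13. The trials did not overlap in either Ross depot. In Illinois abdominal fat TWSG1 was listed at the floor in library 1099 and lay between 12.3 and 18.4 FPKM in the other 6 libraries, and in Illinois cardiac fat it ranged from 12.7 to 24.1 with a median of 14.4.

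With the floor value kept, the trial difference of TWSG1 did not pass in abdominal fat (-1.35, SE 0.54, limma adjusted p = 0.0630) or cardiac fat (-0.82, SE 0.54, limma adjusted p = 0.376). With floor values treated as missing, which drops library 1099 for this gene, it passed in both, at the same -1.35 in abdominal fat (SE 0.21, limma adjusted p = 3.3e-05) and -0.82 in cardiac fat (SE 0.21, limma adjusted p = 0.00863). That fit called 30% of all tested genes between the abdominal trials and 12.9% between the cardiac trials. The Ross libraries hold no floor value of TWSG1, so the fold change is the same and the pooled spread differs. With quantile normalization added, the differences were -0.91 (limma adjusted p = 0.00146) and -0.61 (limma adjusted p = 0.0476). With floor values as missing, the depot differences of TWSG1 were between -0.46 and 0.07 and the line differences -0.18 and -0.12, and none passed.

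NBL1, a secreted antagonist of the DAN family, was the most abundant of the 6 genes in most groups. FPKM are per length and can be set side by side between genes. In Illinois abdominal fat NBL1 was listed at the floor in library 1093 and lay between 68.4 and 151 FPKM in the other 6 libraries, and in Illinois cardiac fat it ranged from 32.2 to 90.8 with a median of 75.2. In Ross abdominal fat it was 115, 114, 75.6 and 58.2 FPKM in libraries 1199 to 1202 of Fall 12, and 49.1, 39.2, 54.2 and 38.9 in libraries 1195 to 1198 of Fall 13. In Ross cardiac fat it was 41.3, 96.6, 93.0 and 90.8 FPKM in libraries 1208 to 1211 of Fall 12, and 136, 66.9, 119 and 74.7 in libraries 1204 to 1207 of Fall 13. Ross abdominal Fall 13 was the lowest group by median and overlapped neither with Ross cardiac Fall 13 nor, above the floor, with Illinois abdominal fat.

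No difference of NBL1 passed with the floor value kept and a spread shared by all groups. Fitted on only the groups compared, the Ross depots of Fall 13 (1.06, limma adjusted p = 0.0282) and the Ross abdominal trials (-0.94, limma adjusted p = 0.0235), which hold no floor value, passed. With floor values as missing, which drops library 1093 for this gene, NBL1 was 1.06 higher in cardiac than in abdominal fat in Ross Fall 13 (SE 0.32, limma adjusted p = 0.0186) and -0.60 in Illinois, which did not pass (SE 0.25, limma adjusted p = 0.0744). The difference between these depot effects, 1.67, passed (SE 0.41, limma adjusted p = 0.0135) and held with quantile normalization (1.47, limma adjusted p = 0.00993). The floor-kept value of the same contrast was 0.72 (SE 1.10, limma adjusted p = 0.749). The lowest Illinois cardiac values of NBL1 were in muscle-signal libraries 1112 (32.2 FPKM) and 1107 (42.7), against 65.5 to 90.8 in the others. The contrast with floor values as missing was not fitted without them. Ross abdominal fat held less NBL1 than Illinois abdominal fat by -1.11 with floor values as missing (SE 0.29, limma adjusted p = 0.0114), against -0.16 with the floor value kept (limma adjusted p = 0.909). The trial difference in Ross abdominal fat was -0.94 with floor values as missing (limma adjusted p = 0.0272) and did not pass with quantile normalization added (-0.54, limma adjusted p = 0.127). With floor values as missing, limma called 19% of all tested genes between the Ross depots of Fall 13 and 9.07% for the change between lines. It called 18.3% between lines in abdominal fat and 30% between the Ross abdominal trials.

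**Figure D2:**
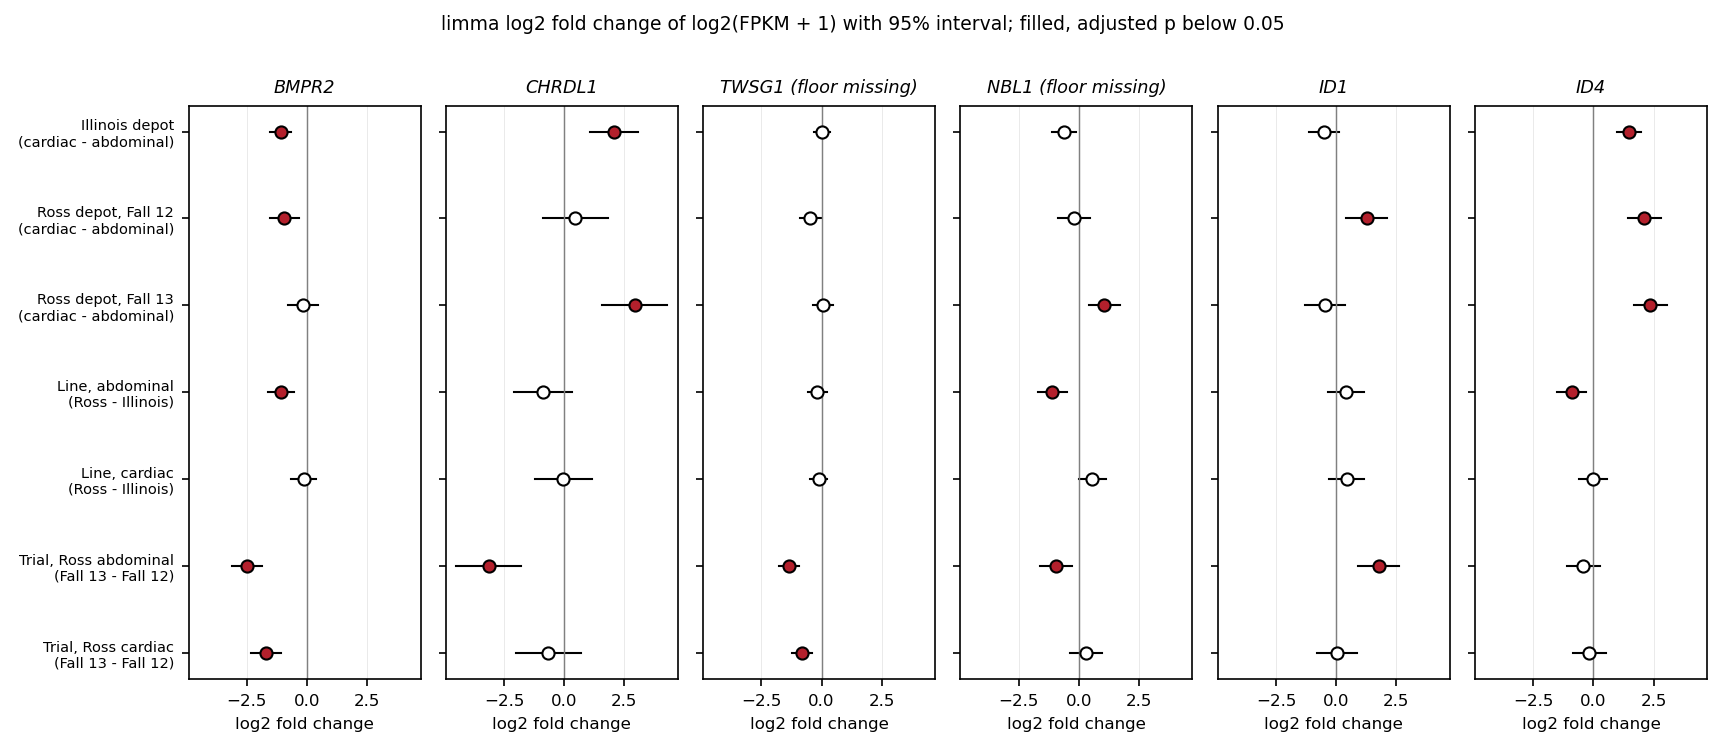
Log2 fold changes of log2(FPKM + 1) from limma (horizontal axis) with 95% intervals for the 6 genes in 7 comparisons, filled where the adjusted p was below 0.05, with floor values as missing for TWSG1 and NBL1. ID4 lies to the right in all 3 depot comparisons, at 1.496, 2.11 and 2.37, and BMPR2 to the left in both trial comparisons, at -2.49 and -1.71.

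Counted with the floor values kept, the depot comparison called 2 of the 6 genes in Ross averaged over trials, both higher in cardiac fat, where 28.8% of all tested genes were called and 18.7% were higher. It called 3 in Ross Fall 12, 2 higher and 1 lower (13% of all genes, 8.27% higher and 4.73% lower). It called 2 in Ross Fall 13, both higher (15.8% of all genes, 12.1% higher). In Illinois it called 3, 2 higher and 1 lower (19.1% of all genes, 8.04% higher and 11.1% lower). The line comparison called 2 in abdominal fat, both lower in Ross (15.8% of all genes, 12.5% lower). In cardiac fat it called 0 by limma, with 0 at an unadjusted p below 0.05, against 5.67% of all genes. The rank sum test called 0 of all 423 genes there and is no further evidence. The trial comparison called 3 in Ross abdominal fat, 1 higher and 2 lower in Fall 13 (25.8% of all genes, 3.31% higher and 22.5% lower), and 1 in Ross cardiac fat, lower (10.4% of all genes, 9.69% lower). For the change of the depot difference between lines or trials, limma called 0 members in each case, with 2 at an unadjusted p below 0.05, against 3.31% and 1.18% of all genes. The median log2 fold change of the 6 genes was -1.15 against -0.30 for all tested genes between trials in Ross abdominal fat, and 0.42 against 0.10 between the Ross depots.

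Ranges that do not overlap are common in groups of 4. Between the Ross abdominal trials, where 5 of the 6 genes had separate ranges, 34.8% of all tested genes did. Between the Ross cardiac trials, where BMPR2 and TWSG1 had separate ranges, 12.8% did. The share was 6.15% between the Illinois depots, where CHRDL1 and ID4 were separate. It was 22.7% between the Ross depots of Fall 13, where CHRDL1, NBL1 and ID4 were separate, and 20.8% between those of Fall 12, where ID4 was. With both trials joined, the Ross depots were separate for ID4 and for 3.55% of all genes. Between lines in abdominal fat, 10.9% were separate, and of the 6 genes NBL1 was, above its floor. The shares of all genes keep floor values, and by that rule the lines overlap for NBL1.

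Of 124 genes listed for the BMP and TGF-beta pathway and for ID partners, 26 besides the 6 members were in the table and 15 of them were tested. The 11 others reached at most 6.08 FPKM in any library. Of the 15, between trials 1 rose and 3 fell in each Ross depot, where 25.8% of all tested genes were called in abdominal fat (22.5% lower) and 10.4% in cardiac fat (9.69% lower). They included TGFBR1, a type I receptor for TGF-beta, CRIM1, a membrane protein that binds BMPs, and RGMA, a BMP co-receptor.

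TGFBR1 was 14.5, 15.1, 12.7 and 10.4 FPKM in Ross abdominal libraries 1199 to 1202 of Fall 12, and 6.74, 4.53, 3.48 and 2.48 in libraries 1195 to 1198 of Fall 13. The trials did not overlap there. The difference was -1.47 (SE 0.26, limma adjusted p = 0.000172), and in cardiac fat -0.88 (SE 0.26, limma adjusted p = 0.0252). The cardiac call was lost in 5 of 41 alternatives, among them leaving out any of libraries 1205, 1206, 1207 or 1210 (-0.72 to -0.88, limma adjusted p 0.0557 to 0.124).

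RGMA went the other way. It was 12.4, 14.97, 13.6 and 15.8 FPKM in the same Ross abdominal libraries of Fall 12 and 47.01, 38.3, 29.5 and 27.7 in those of Fall 13, so the lowest Fall 13 library lay above the highest of Fall 12. It rose by 1.24 in abdominal fat (SE 0.30, limma adjusted p = 0.00298) and by 0.96 in cardiac fat (SE 0.30, limma adjusted p = 0.0418). The cardiac call was lost in 7 of 41 alternatives. Among these was leaving out the muscle-signal libraries (0.93, limma adjusted p = 0.0636), which keeps only 1210 and 1211 of the Ross cardiac Fall 12 libraries. The call was also lost without any of libraries 1204, 1205, 1206, 1208 or 1210 (0.74 to 1.03, limma adjusted p 0.0557 to 0.150).

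CRIM1 fell between trials by 0.95 in abdominal fat (log2 fold change -0.95, limma adjusted p = 0.0191) and by 1.29 in cardiac fat (-1.29, limma adjusted p = 0.00502). The abdominal call was lost in 5 of 41 alternatives, among them quantile normalization (-0.52, limma adjusted p = 0.170) and leaving out library 1196 or 1198 (-0.61 and -0.82, limma adjusted p 0.125 and 0.0738). The cardiac call held under all 41 alternatives. SMAD2, a signal carrier of the TGF-beta branch, fell by 0.61 in abdominal fat (-0.61, limma adjusted p = 0.0489), a call lost in 26 of 41 alternatives and when any of 20 single libraries was left out (limma adjusted p up to 0.166). BMP2, a ligand, fell by 0.91 in cardiac fat (-0.91, limma adjusted p = 0.0418), a call lost in 9 of 41 alternatives. Among these were quantile normalization (-0.48, limma adjusted p = 0.362) and leaving out any of libraries 1205, 1207, 1209, 1210 or 1211 (-0.58 to -0.94, limma adjusted p 0.0614 to 0.226).

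Between depots, 1 of the 15 rose and 1 fell in Ross averaged over trials, where 28.8% of all tested genes were called. SMAD3, also of the TGF-beta branch, was 0.50 higher in cardiac fat (SE 0.14, limma adjusted p = 0.00917), a call lost after quantile normalization (0.31, limma adjusted p = 0.0696). TBX3, a T-box repressor known as a BMP target, was lower (-0.90, SE 0.29, limma adjusted p = 0.0217), a call lost without library 1208 (-0.69, limma adjusted p = 0.0637). In Fall 12 limma called 0 of the 15, with 2 at an unadjusted p below 0.05, and in Fall 13 it called SMAD3 (0.68, limma adjusted p = 0.0194). The SMAD3 call of Fall 13 was lost in 3 of 41 alternatives, among them without library 1198 or 1206 (0.64 and 0.58, limma adjusted p 0.0531 and 0.0899).

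In Illinois 3 of the 15 fell in cardiac fat and 0 rose, where 19.1% of all tested genes were called and 11.1% fell. TCF3, an E protein and partner of ID proteins, differed by -0.73 (limma adjusted p = 0.00229) and the BMP target TBX2 by -1.08 (limma adjusted p = 0.0101), and both calls held under all 43 alternatives. RGMA differed by -0.63 (limma adjusted p = 0.0435), a call lost in 16 of 43 alternatives. Among these were leaving out the 4 muscle-signal libraries (-0.41, limma adjusted p = 0.186) and leaving out any of 12 single libraries (limma adjusted p up to 0.1001).

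Between lines, 3 of the 15 were lower in Ross abdominal fat and 0 were higher, where 15.8% of all tested genes were called and 12.5% were lower. They were CRIM1 (-0.93, limma adjusted p = 0.0205), TCF3 (-0.65, limma adjusted p = 0.0371) and SMAD3 (-0.60, limma adjusted p = 0.0266). CRIM1 was lost in 4 of 42 alternatives, among them without library 1196 or 1198 (-0.60 and -0.80, limma adjusted p 0.138 and 0.0797). TCF3 was lost in 10 of 42, among them without any of libraries 1094, 1097, 1098 and 1195 to 1198 (limma adjusted p up to 0.0978). SMAD3 was lost in 6 of 42, among them without any of libraries 1094 and 1196 to 1198 (limma adjusted p up to 0.0778). In cardiac fat limma called 0 of the 15, with 2 at an unadjusted p below 0.05. The median log2 fold change of the 15 was -0.44 in abdominal fat, against -0.15 over all tested genes.

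**Figure D3:**
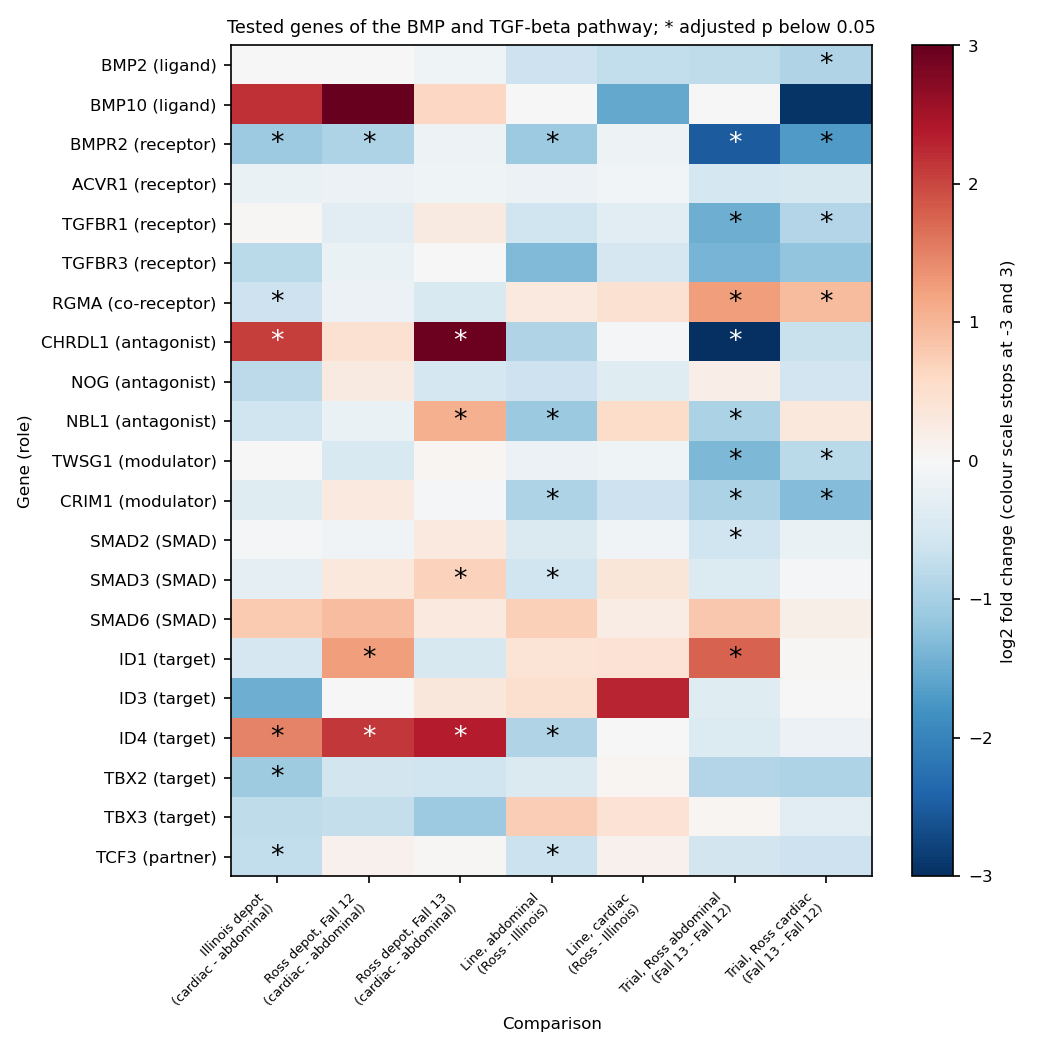
Log2 fold changes of the 6 genes and 15 other tested pathway genes (rows, with roles) in 7 comparisons (columns), coloured from -3 to 3, with a star where the adjusted p was below 0.05 and floor values as missing for TWSG1 and NBL1. In the columns for trial, BMPR2, TWSG1, TGFBR1 and CRIM1 were lower and RGMA higher in both depots; the strong unstarred colours of ID3 and BMP10 come with values at the floor or with single high libraries.

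Also on the ligand and ID lists were 2 genes whose values a group mean does not describe. ID3 was listed at the floor in Illinois abdominal library 1099 and Illinois cardiac libraries 1110 and 1111, and lay between 48.3 and 280 FPKM in the other 28 libraries, so no depot or line direction is given for it. BMP10, a ligand made chiefly by heart muscle of the atria in mammals, was named after its values were seen. It was at the floor in 13 of 15 abdominal libraries and at 0.0335 and 0.0591 FPKM in the other two, and above the floor in all 16 cardiac libraries. It reached 747 FPKM in Ross cardiac library 1208 and 141 in Illinois cardiac library 1112, then 19.8 in 1107 and 19.1 in 1209, and lay between 0.0732 and 7.21 in the other 12 cardiac libraries. Those 4 libraries are the ones with the highest CASQ2. No depot difference of BMP10 passed in limma (adjusted p = 0.113 in Ross and 0.141 in Illinois).

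**Figure D4:**
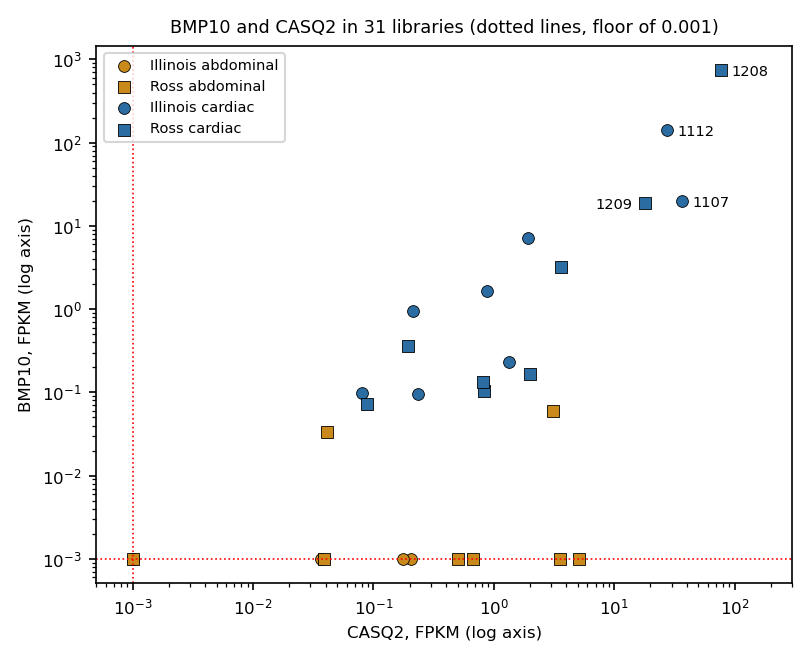
FPKM of BMP10 against the heart muscle gene CASQ2 in the 31 libraries on log axes, with dotted lines at the floor of 0.001; circles are Illinois, squares Ross, orange abdominal and blue cardiac. The 4 numbered cardiac libraries are highest in both, at 19.1 to 747 FPKM of BMP10 and 18.1 to 77.2 of CASQ2.

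The tested genes most like each member were ranked by Spearman's rho of log2(FPKM + 1) over the 31 libraries, given as a description because the libraries share line, depot, trial and depth. For ID4 they were FBN3 (0.91), FZD1 (0.86) and TBX18 (0.85). For CHRDL1 they were AXIN2 (0.86), DPYSL3 (0.85) and FBLN1 (0.84). For BMPR2 they were FZD4 (0.87), ITGB1 (0.83) and SURF4 (0.79), and for TWSG1 they included the receptor TGFBR1 (0.82) and THBS1 (0.77). NBL1 was most like TIMP2 (0.75), and ID1 had no gene above 0.62, its nearest being PALD1.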

How the data were processed

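RNA levels were measured by sequencing in 31 libraries of chicken fat. The deposited values are FPKM, with 1 value per gene in a library. Per the submitters' processing notes, the authors' tools were TopHat, Bowtie and Cufflinks. The genome build, annotation and versions of these tools were not given in the sources used here. Unit names are absent from the header, and the unit follows from Cufflinks and the size of the values. Each library is divided by its own total, so an abundant gene lowers all others. Of 567 lines, 566 were complete, and 564 genes remained without duplicates; 2279 cells held the floor of 0.001. Of their Entrez numbers, 562 were found in assembly GRCg7b, used for names alone.

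Values were analysed as log2(FPKM + 1), for genes that reached 1 FPKM in 7 or more libraries, with limma 3.58.1 in R 4.3.3 (6 means, mean-variance trend, robust moderation, a spread shared by all libraries). This scale understates the fold changes of low genes. The main fit was run on simulated data with known changes between the Ross depots averaged over trials. It recovered 77.4% of log2 changes of 1 and 94.4% of changes of 2, with 1.27% and 3.45% of calls false. The simulated data held no floor values, and the other comparisons were not checked in this way. Low values of 99 genes gave relative depths, with 72.8% of 1357 values within 0.05 fragments of a whole number.

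The 6 members, the pathway lists and the marker lists were chosen with earlier results of these data known. Named genes were the members, called genes of the pathway lists, up to 6 per comparison, and the genes nearest each member, of which 1 is not reported here. Alternatives were another pseudocount, no filter, quantile and upper quartile scaling, floor values as missing, other models, a rank test and leaving out libraries. Those that treat the second column number as a block, or join floor values as missing with a scaling, were added after seeing the data. Most alternatives leave out 1 library. Where that library lies outside the groups compared, only the shared spread can change. An additive trial term shared by both Ross depots is also among the alternatives of the trial comparisons. Counts of alternatives are therefore not counts of independent checks.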

Additional observations from a re-analysis of the deposited data

Results flagged for a closer look

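In 36 groups (6 genes in 6 combinations of line, depot and trial), 4 had a library far from the rest of its group. The rule is set to flag about 1 in 20 by chance, a rate that need not hold for FPKM or for floor values. BMPR2 was 8.54 FPKM in Illinois cardiac library 1110, against 3.61 to 5.20 in the other 7. TWSG1 was listed at 0.001 in Illinois abdominal library 1099, against 12.3 to 18.4 FPKM in the other 6, and ID3 was at the floor in the same library. TWSG1 was 24.1 FPKM in Illinois cardiac library 1112, against 12.7 to 16.8 in the other 7. NBL1 was 41.3 FPKM in Ross cardiac library 1208 of Fall 12, against 90.8 to 96.6 in the other 3. Libraries 1112 and 1208 are among the 4 with the highest CASQ2, at 27.5 and 77.2 FPKM.

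SMAD3 differed between the lines in its depot effect, which was 0.95 larger on the log2 scale in Ross than in Illinois within Fall 13 (SE 0.25, limma adjusted p = 0.0299). The call was lost in 5 of 42 alternatives, among them quantile normalization (0.75, limma adjusted p = 0.0721) and leaving out Ross abdominal library 1198 or Ross cardiac library 1206 (0.91 and 0.84, limma adjusted p 0.0783 and 0.0680).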

How the results depend on the processing

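Of 417 recounts of called genes, 363 stayed within 1.5 times the main count. In Ross Fall 12 the depot count of 55 was 21 without the 4 libraries with a muscle signal, which keeps only cardiac libraries 1210 and 1211 there. It was 35 when only the groups compared were fitted. The line count of 67 in abdominal fat and of 24 in cardiac fat was 0 and 0 by the exact permutation test of rank sums with adjustment (122 and 76 at an unadjusted p below 0.05). The cardiac line count was 52 with floor values as missing and 1 when only the groups compared were fitted. The count for the change of the depot difference between lines, 14, was 27 with a pseudocount of 0.1, 38 with floor values as missing, 6 when only the groups compared were fitted and 46 with an additive trial term. The trial count of 44 in cardiac fat was 13 when only the groups compared were fitted and 133 with an additive trial term. That term is 1 value shared by both Ross depots and is no estimate for cardiac fat alone. By it CHRDL1 (-1.90), ID1 (0.90) and TWSG1 (-1.08) were also called. In cardiac fat alone the main fit gave -0.66, 0.03 and -0.82, and called none of them. The count for the change of the depot difference between trials, 5, was 15 with no filter and 2 after quantile normalization. The cause was not tested. Quantile normalization changed the split of higher and lower calls from 79 and 43 to 59 and 63 between the Ross depots, 35 and 20 to 27 and 33 in Fall 12, 51 and 16 to 34 and 39 in Fall 13, 14 and 53 to 31 and 37 between lines in abdominal fat, 19 and 5 to 20 and 12 in cardiac fat, 14 and 95 to 38 and 51 between trials in abdominal fat, and 3 and 41 to 18 and 21 in cardiac fat; upper quartile scaling gave 53 and 43 in place of 34 and 47 between the Illinois depots. Leaving out 1 library gave 67 to 92 calls between the Illinois depots, 101 to 130 between the Ross depots, 38 to 62 in Fall 12 and 43 (without library 1206) to 74 in Fall 13, 32 (without 1196) to 78 between lines in abdominal fat, 8 (without 1205 or 1207) to 36 in cardiac fat, 85 to 114 between trials in abdominal fat, 26 (without 1205) to 48 in cardiac fat, 7 (without 1198 or 1206) to 33 (without 1096) for the change between lines, and 0 (without 1196 or 1200) to 10 (without 1202) for the change between trials. The rank test was not run for groups of 4 against 4, which cannot pass after adjustment, or for changes of the depot difference. Column names share a second number between depots in 15 cases, each within the same line and trial, with no word on what it is. Deviations of libraries with the same number correlated from -0.109 to 0.460, 9 of 15 above 0.1, and 6 of 15 correlated best with their own number, which neither shows nor excludes a pairing, and none was assumed. With it as a replicate block, the depot counts were 135 (fixed term) and 137 (estimated correlation) against 122 in Ross and 88 and 100 against 81 in Illinois, and the count for the change between lines was 27 and 36 against 14. BMPR2 between the Ross depots was called with the block (adjusted p 0.0236 and 0.0267), while SMAD3 for the change between lines (0.88, adjusted p = 0.0557, fixed term) and SMAD2 between the abdominal trials (adjusted p = 0.0555, estimated correlation) were lost. FPKM and relative depth give no counting error for single values, and the lowest values of CHRDL1, near 0.25 FPKM, rest on few fragments.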
